A study of Mus musculus with 11 samples.

Results

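The transcripts described here encode the oxygen-sensing pathway of the liver sinusoid. They are the hypoxia-inducible factor (HIF) alpha subunits Hif1a, Epas1 and Hif3a, the prolyl hydroxylases Egln1, Egln2 and Egln3, the ubiquitin ligase subunit Vhl, and the targets Ankrd37, Bnip3 and Ndrg1. The genes were chosen by symbol, and all 10 were found among the 29307 genes of the raw count table. RNA sequencing had been performed on hepatic sinusoidal endothelial cells (ECs) from 6 conventionally raised (CONV-R) and 5 germ-free (GF) mice, with 1 library per mouse. All animals were male C57BL/6J mice aged 10 to 12 weeks from the same colonies and ate the same autoclaved diet. GF mice were kept in sterile isolators, whereas CONV-R mice lived under specific-pathogen-free conditions. Livers were dissociated with enzymes, CD146+ cells were taken on magnetic beads, and live CD31+ CD105+ CD146+ cells were then sorted, so the RNA reflects the cells after dissociation and sorting. RNA was amplified over the whole transcriptome from 20 ng of input. The paper reports fewer sorted ECs and less total RNA from GF than from CONV-R livers, and low viability of the sorted cells. Cell number and RNA yield thus differed with the group, and their part in the results was not tested. The paper also reports a larger CD31+ area in sections of GF livers. Neither the proteins of these 10 genes nor tissue oxygen was measured.

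As background, HIF alpha proteins are made continuously and destroyed while oxygen is present. The EGLN enzymes use oxygen to hydroxylate prolines of the alpha subunit, VHL recognises the hydroxylated protein, and the ligase marks it for the proteasome. When oxygen falls, the alpha subunit is spared, pairs with ARNT and binds the core sequence ACGTG or GCGTG of target genes. The abundance of an alpha subunit's mRNA therefore does not give the amount of active factor. In the liver sinusoid blood loses oxygen on its way from the portal to the central vein, and EPAS1, also called HIF-2 alpha, is named for its expression in endothelium.

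Ndrg1 and Bnip3 rose in GF ECs, and no transcript of the 10 fell. The Bnip3 call was lost in 8 of 21 alternative settings (edgeR adjusted p up to 0.0785), which left Ndrg1 as the only call. All 10 passed the filter on low counts. The 2 calls among 10 transcripts stand beside 4.80% of the 12905 tested genes called higher in GF mice and 2.67% called lower by edgeR's quasi-likelihood test. The fitted Log2FC (GF minus CONV-R) was above 0 for 9 of the 10 with a median of 0.50, whereas 6337 of all 12905 tested genes were above 0 with a median of -0.01. In 2 of the 10, again Ndrg1 and Bnip3, every GF library lay above every CONV-R library, which held for 3.22% of tested genes. The alpha subunits, the hydroxylases and Vhl did not pass the threshold of an adjusted p under 0.05. In bulk RNA of sorted cells, fewer cells of a type and less RNA per cell cannot be told apart.

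**Figure D1:**
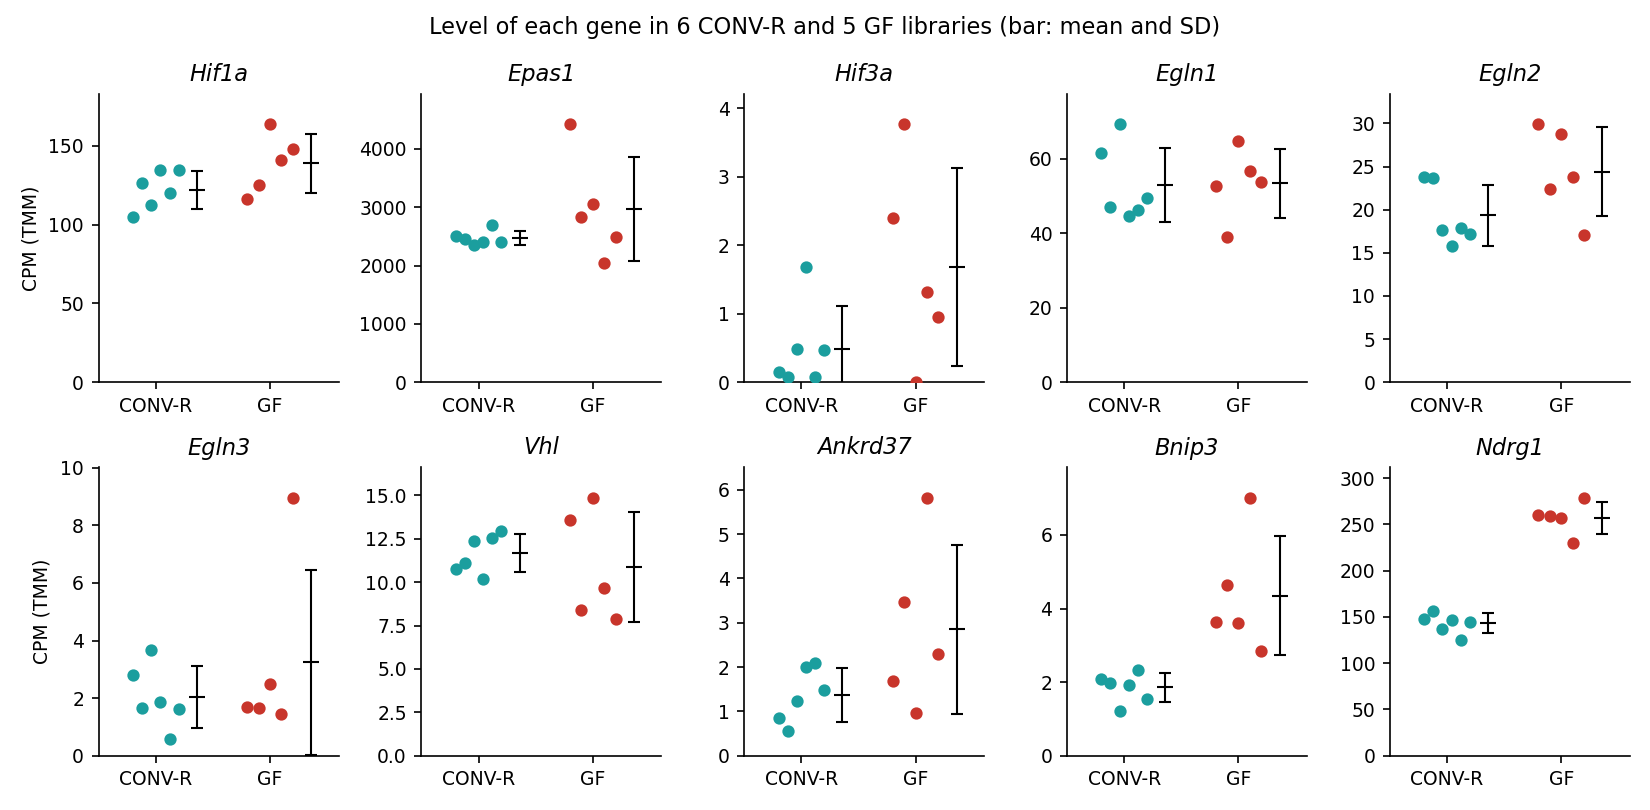
Level of each gene in CPM (counts scaled by library size and the trimmed mean of M values, TMM), on linear axes that start at 0, with 1 point per library, in replicate order from left to right, and bars for mean and SD (cut at 0). The 5 GF points of Ndrg1 lie between 230 and 279 CPM, above all CONV-R points, which end at 156 CPM.

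Total counts ran from 7922855 to 14669352 in CONV-R and from 7242717 to 16164588 in GF libraries (two-sided exact permutation p = 0.403). Summed over 8 sinusoidal endothelial markers, led by Stab2 and Mrc1, the level was 26215 to 33761 CPM in CONV-R and 26802 to 37219 CPM in GF libraries, so the defining markers of the labelled cell type were high in every library. CONV-R replicate 3 stood apart on the second principal component (-48.1, the other CONV-R libraries 6.01 to 17.6), and GF replicate 2 had 22674 genes with a count (15456 to 18495 in the others). The split of calls depended on scaling: 64.2% of calls were higher in GF mice with TMM and 52.2% with library totals alone.

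Sequence upstream of the transcription start is shown for Bnip3, which rose, for Ankrd37, a target with the next largest estimate among those expressed in every library, and for Egln3, a hydroxylase that is itself a known HIF target. RefSeq promoter windows (GRCm38.p6) matched 8 of the 10 genes in 9 windows, and those of Epas1 and Ndrg1 are not among them. Capitals mark ACGTG and GCGTG on either strand, so that CACGT and CACGC are their reverse complements. Exonic bases nearest the start were left out. The Bnip3 stretch lies at chr7:138909520-138909756, minus strand, that of Ankrd37 at chr8:45999868-46000100, minus strand, and that of Egln3 at chr12:54203875-54204124, minus strand.
Bnip3: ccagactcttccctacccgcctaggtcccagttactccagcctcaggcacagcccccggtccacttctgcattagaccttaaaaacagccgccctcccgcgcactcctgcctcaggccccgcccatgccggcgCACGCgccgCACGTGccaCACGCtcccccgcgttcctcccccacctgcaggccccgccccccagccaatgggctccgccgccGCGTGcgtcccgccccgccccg
Ankrd37: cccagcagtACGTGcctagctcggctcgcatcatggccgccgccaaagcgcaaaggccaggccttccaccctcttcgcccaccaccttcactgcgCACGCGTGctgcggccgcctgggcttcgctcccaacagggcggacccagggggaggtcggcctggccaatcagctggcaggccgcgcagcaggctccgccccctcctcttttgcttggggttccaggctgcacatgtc
Egln3: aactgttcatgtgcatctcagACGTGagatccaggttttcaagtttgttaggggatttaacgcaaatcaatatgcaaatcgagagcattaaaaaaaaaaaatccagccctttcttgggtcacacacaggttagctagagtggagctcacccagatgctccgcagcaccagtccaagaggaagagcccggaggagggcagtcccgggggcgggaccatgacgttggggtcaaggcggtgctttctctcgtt

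In Bnip3 the palindrome CACGTG, which reads as ACGTG on both strands and is also an E-box, begins at position -108 relative to the start, and 3 GCGTG matches lie around it. Ankrd37 holds ACGTG at position -241 and again at -6, among the exonic bases not printed, together with 2 overlapping GCGTG matches. The match in Egln3 lies at -229. Over 250 bases before the start, 16.6% of the 32851 RefSeq promoters hold ACGTG, 28.2% hold GCGTG and 6.02% hold CACGTG. The search for GCGTG was added after the data were seen. The Hif1a window also holds CACGTG, at -135, and a further ACGTG at -70. The Egln1 window holds ACGTG and GCGTG. Of the 2 Egln2 windows both hold GCGTG and 1 holds ACGTG at -48, with a CACGTG from -4 that runs across the start. The Hif3a window holds GCGTG alone, and the Vhl window holds neither. A match describes the letters of the window only.

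Epas1 (chr17:86753700-86833410, plus strand) was by far the most abundant HIF alpha transcript in both groups (gene positions are on GRCm38, GENCODE M21). Per kilobase of exon, Epas1 averaged 442 ± 21.7 CPM in CONV-R mice (SD, n = 6) and 532 ± 160 CPM in GF mice (SD, n = 5). Hif1a, the broadly expressed alpha subunit, averaged 20.7 ± 2.04 and 23.6 ± 3.17 CPM per kilobase on the same scale. Epas1 thus made up 95.5% ± 0.524 of the 3 alpha transcripts per length in CONV-R mice and 95.4% ± 1.40 in GF mice.

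In CPM, Epas1 ran from 2348 to 2688 in CONV-R libraries with a median of 2429. The GF libraries read 4420, 2839, 3063, 2049 and 2491 CPM in replicates 1, 2, 4, 5 and 6. GF mice lay on both sides of the CONV-R range, and replicate 1 alone was far above it. The Log2FC of Epas1 was 0.27 with a 95% confidence interval from -0.04 to 0.58 (edgeR, Benjamini-Hochberg adjusted p = 0.295). The estimate was 0.08 without GF replicate 1 (edgeR adjusted p = 0.756) and 0.38 without GF replicate 5. The spread between GF mice, at 30.1% of their mean, was wider than the 4.90% of the CONV-R mice.

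Hif1a (chr12:73901375-73947530, plus strand) ran from 105 to 135 CPM in CONV-R libraries with a median of 123, and read 116, 125, 164, 141 and 148 CPM in GF replicates 1, 2, 4, 5 and 6. The GF replicates 4, 5 and 6 exceeded every CONV-R library, while replicates 1 and 2 lay among them. The Log2FC was 0.18 with an interval from -0.06 to 0.42 (edgeR adjusted p = 0.356), which leaves room for a modest rise but not for a doubling. The log2 ratio of Epas1 to Hif1a counts within a library was 4.34 ± 0.174 in CONV-R and 4.38 ± 0.537 in GF mice, a difference of 0.04 (exact permutation p = 0.866, adjusted over 6 ratios 0.866). Its direction turned on 1 library, with a difference of -0.17 without GF replicate 1 and 0.17 without GF replicate 5.

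Hif3a (chr7:17031507-17062427, minus strand), whose splice forms include inhibitors of the other alpha subunits, was barely detected. It was supported by 35 counts over all CONV-R and 93 over all GF libraries, between 0 and 39 per library. CONV-R libraries ran from 0.0683 to 1.69 CPM with a median of 0.310, and GF replicates 1, 2, 4, 5 and 6 read 2.40, 3.77, 0, 1.32 and 0.949 CPM. The highest GF libraries lay above the CONV-R range, yet replicate 4 was the only library without a count. The Log2FC of 1.79 had an interval from 0.06 to 3.52 and did not pass after adjustment (edgeR adjusted p = 0.202).

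**Figure D2:**
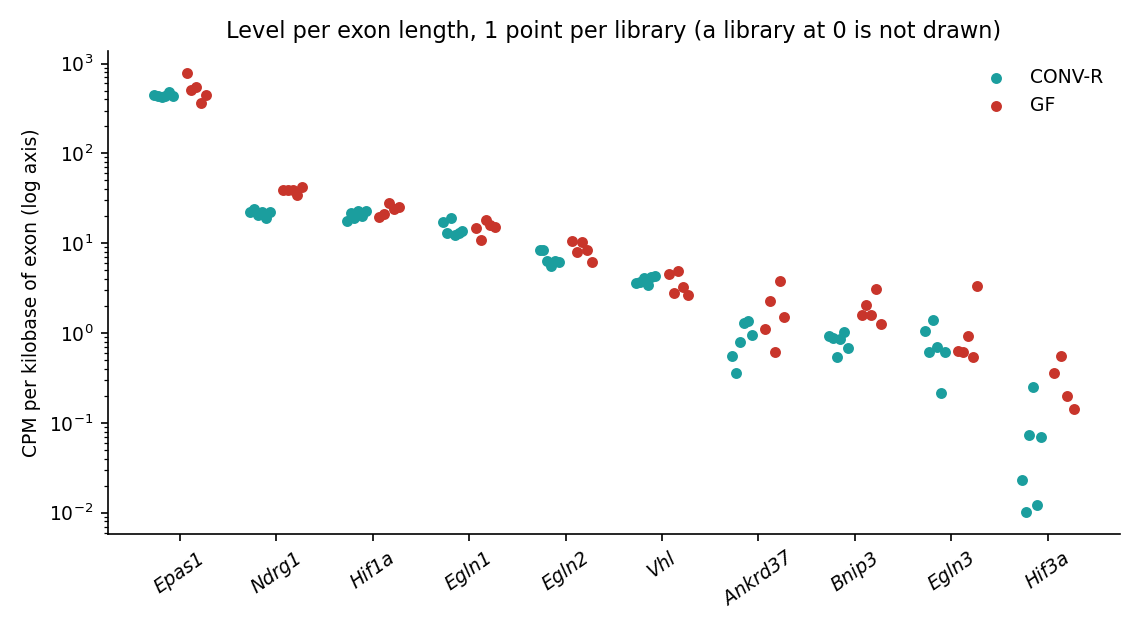
Level per exon length (CPM per kilobase of the union of annotated exons, log axis), ordered by the mean over 11 libraries, with 1 point per library. Epas1 stands above every other gene in all 11 libraries and Hif3a below every other gene.

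Egln1 (chr8:124908587-124949324, minus strand), the main HIF prolyl hydroxylase or PHD2, was the most abundant of the 3 sensors and differed least between groups. Per exon length it made up 65.7% ± 4.07 of the Egln transcripts in CONV-R and 59.7% ± 3.44 in GF mice, followed by Egln2 (PHD1) with 31.0% ± 4.81 and 35.3% ± 6.62. Egln3 (PHD3) contributed 3.27% ± 1.35 and 4.95% ± 4.94. The order Egln1, Egln2, Egln3 held in all 11 libraries.

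Egln1 ran from 44.8 to 69.2 CPM in CONV-R libraries with a median of 48.3, and read 52.7, 39.0, 64.7, 56.7 and 53.8 CPM in GF replicates 1, 2, 4, 5 and 6. No GF library exceeded the CONV-R range, and 1 lay below it. The Log2FC was 0.01 with an interval from -0.31 to 0.33 (edgeR adjusted p = 0.981), so that neither a doubling nor a halving lies within it. Its sign turned negative in 8 of 21 alternative settings.

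Egln2 (chr7:27158658-27166802, minus strand) ran from 15.7 to 23.8 CPM in CONV-R libraries with a median of 17.8, and read 29.9, 22.4, 28.8, 23.8 and 17.1 CPM in GF replicates 1, 2, 4, 5 and 6. Replicates 1 and 4 exceeded all CONV-R libraries. The Log2FC was 0.34 with an interval from -0.03 to 0.71 (edgeR adjusted p = 0.261). The log2 ratio of Egln1 to Egln2 was 1.46 ± 0.318 in CONV-R and 1.14 ± 0.353 in GF mice, lower by 0.32 with an exact permutation p of 0.147 (adjusted 0.294).

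Egln3 (chr12:54178981-54203860, minus strand), a sensor whose own transcription HIF is known to raise, was low and turned on 1 library. CONV-R libraries ran from 0.565 to 3.68 CPM with a median of 1.74. GF replicates 1, 2, 4 and 5 read 1.69, 1.64, 2.48 and 1.45 CPM, inside the CONV-R range, and replicate 6 read 8.95 CPM. The Log2FC of 0.67 (interval -0.46 to 1.79, edgeR adjusted p = 0.491) became -0.14 without that library.

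Vhl (chr6:113623959-113631633, plus strand), the substrate-binding subunit of the ligase, was the only gene of the 10 with a Log2FC below 0. It ran from 10.2 to 13.0 CPM in CONV-R libraries with a median of 11.8, and read 13.6, 8.40, 14.9, 9.65 and 7.87 CPM in GF replicates 1, 2, 4, 5 and 6. GF libraries lay above the CONV-R range in replicates 1 and 4 and below it in the other three. The Log2FC was -0.09 with an interval from -0.51 to 0.33 (edgeR adjusted p = 0.829), and without GF replicate 6 it was 0.000528. The log2 ratio of Vhl to Egln1 was lower in GF mice by 0.15 (exact permutation p = 0.394, adjusted 0.587), and that of Egln1 to Egln3 was lower by 0.48 (p = 0.489, adjusted 0.587), or by 0.02 without GF replicate 6 and by 0.19 without CONV-R replicate 5. Hif1an, the asparaginyl hydroxylase that blocks coactivator binding to HIF, gave an Egln1 to Hif1an log2 ratio lower by 0.18 in GF mice (exact permutation p = 0.0952, adjusted 0.286).

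Ndrg1 showed the firmest difference of the 10 transcripts. It encodes a cytoplasmic protein of the N-myc downstream regulated family, and its transcription is known to respond to low oxygen as well as to metal chelation and DNA damage. CONV-R libraries ran from 125 to 156 CPM with a median of 146, and GF replicates 1, 2, 4, 5 and 6 read 261, 259, 257, 230 and 279 CPM. The lowest GF library stood well above the highest CONV-R library, and both groups were tight, with SDs of 6.83% of the mean in GF and 7.55% in CONV-R mice. The means were 257 ± 17.6 CPM (SD, n = 5) and 143 ± 10.8 CPM (SD, n = 6), a 1.80-fold difference. The Log2FC was 0.84 ± 0.0954 (SE) with an interval from 0.64 to 1.05, with an adjusted p of 3.75e-05 in edgeR's quasi-likelihood test (Benjamini-Hochberg). By unadjusted p, Ndrg1 ranked 30 among the 12905 tested genes, and the exact permutation p was 0.004329, the smallest that 5 against 6 mice allow. The gene was called in all 11 refits without 1 library, where the Log2FC ran from 0.80 to 0.88.

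Bnip3 rose by more but on far fewer counts. It encodes a mitochondrial BH3-like protein that recruits the autophagy machinery to mitochondria, and it is a classical HIF target. CONV-R libraries ran from 1.23 to 2.34 CPM with a median of 1.95, and GF replicates 1, 2, 4, 5 and 6 read 3.64, 4.64, 3.62, 7.01 and 2.85 CPM. All GF libraries lay above all CONV-R libraries, with GF replicate 6 nearest to them. These levels rested on 216 counts over the GF and 139 over the CONV-R libraries, between 10 and 56 per library. The means were 4.35 ± 1.62 CPM (SD, n = 5) and 1.85 ± 0.40 CPM (SD, n = 6), a 2.35-fold difference. The Log2FC was 1.21 ± 0.328 (SE) with an interval from 0.52 to 1.91, and the edgeR adjusted p was 0.0320 (exact permutation p = 0.004329). The call was lost in 5 of 11 refits without 1 library (CONV-R replicates 2, 4 and 6, GF replicates 2 and 5), with adjusted p from 0.0595 to 0.0740 and a Log2FC of at least 0.98.

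Bnip3l, the related mitophagy receptor, was far more abundant and did not share the difference. It averaged 222 ± 20.1 CPM in CONV-R and 217 ± 29.0 CPM in GF mice, with a Log2FC of -0.04 (edgeR adjusted p = 0.892). The log2 ratio of Bnip3 to Bnip3l counts within a library ran from -7.51 to -6.54 in CONV-R and from -6.44 to -4.94 in GF mice, with no overlap. The difference of 1.23 was the only one of the 6 ratios to pass (exact permutation p = 0.004329, adjusted 0.0260). In each refit with 4 GF mice its adjusted p was 0.0571. That is the value the smallest permutation p gives while no other ratio is low.

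Ankrd37, an ankyrin repeat protein and HIF target, ran from 0.546 to 2.10 CPM in CONV-R libraries with a median of 1.35. GF replicates 1, 2, 4, 5 and 6 read 1.69, 3.48, 0.952, 5.82 and 2.31 CPM. Replicates 2, 5 and 6 exceeded the CONV-R range and the others fell inside it. The Log2FC was 1.04 with an interval from 0.02 to 2.06 (edgeR adjusted p = 0.209), on 133 GF and 99 CONV-R counts. The estimate was 0.61 without GF replicate 5.

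**Figure D3:**
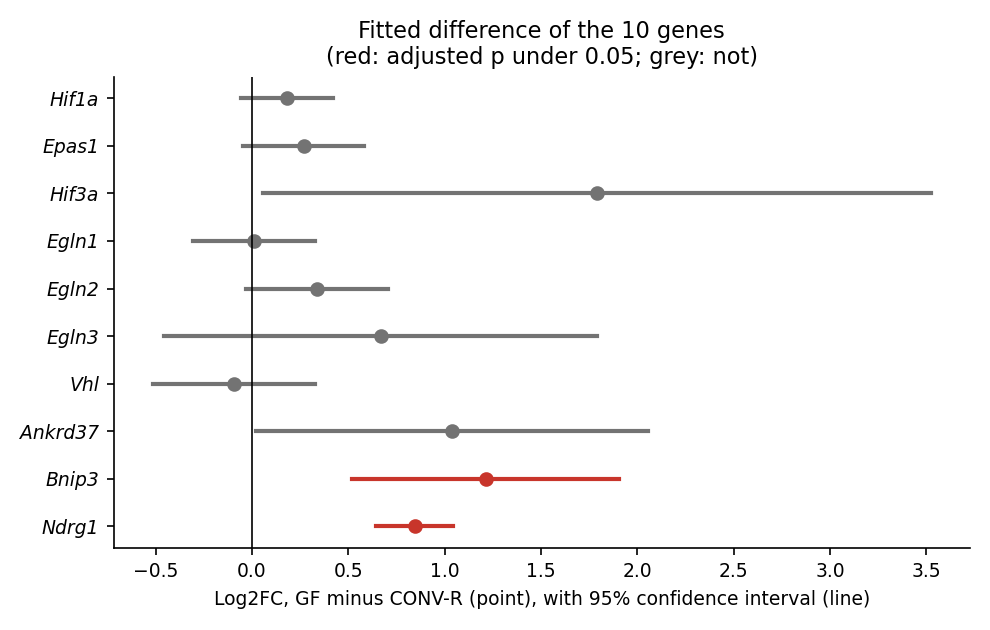
Fitted Log2FC (GF minus CONV-R) of the 10 genes, as points with 95% confidence intervals from edgeR's quasi-likelihood fit. The intervals of Ndrg1 (0.64 to 1.05) and Bnip3 (0.52 to 1.91) belong to the genes that passed the threshold after adjustment over all tested genes.

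Within the GF group the targets did not follow one order. GF replicate 5 had the highest Bnip3 and Ankrd37 of the GF mice but the lowest Epas1 and Ndrg1. GF replicate 6 had the highest Ndrg1 and Egln3 but the lowest Bnip3, Egln2 and Vhl. Per exon length and over all 11 libraries the transcripts ranked Epas1 (483 CPM per kilobase), Ndrg1 (29.5), Hif1a (22.0), Egln1 (14.8), Egln2 (7.73), Vhl (3.77), Ankrd37 (1.33), Bnip3 (1.32), Egln3 (0.969) and Hif3a (0.154). Ndrg1 exceeded Hif1a in 8 of 11 libraries, Hif1a exceeded Egln1 in 10, Vhl exceeded Ankrd37 in 10, Ankrd37 exceeded Bnip3 in 7 and Bnip3 exceeded Egln3 in 8, so these neighbours did not separate in every mouse. The order also depended on the group: Ndrg1 exceeded Hif1a in 5 of 5 GF but 3 of 6 CONV-R libraries, and the mean of Bnip3 was above that of Ankrd37 in GF mice (1.92 against 1.85 CPM per kilobase) and below it in CONV-R mice (0.819 against 0.889).

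Several genes shared exon bases with annotated neighbours (GENCODE M21), and the strand setting of the counting is not given in the sources used here. For Bnip3 (chr7:138890836-138909519, minus strand) 22.3% of exon bases overlapped an antisense gene that held 0 GF and 1 CONV-R counts. For Ankrd37 (chr8:45996902-46005707, minus strand) 22.7% overlapped Lrp2bp, which held 155 GF and 261 CONV-R counts and had a Log2FC of -0.20 (edgeR adjusted p = 0.855). A further 3.70% overlapped Ufsp2, which held 1384 GF and 2059 CONV-R counts beside 133 and 99 of Ankrd37. Ndrg1 (chr15:66929318-66969640, minus strand) shared 6.35% with a gene at 0 counts and 2.08% with Gm2895, which held 13 GF and 9 CONV-R counts. Hif1a shared 5.60% with Gm15283, which held 163 GF and 374 CONV-R counts beside 6966 and 9019 of Hif1a.

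Kupffer cell markers moved with the same contrast. Their summed level over 10 genes, led by Clec4f and Cd5l, ran from 86.0 to 222 CPM in CONV-R libraries with a median of 106, and from 197 to 931 CPM in GF libraries with a median of 288 (exact permutation p = 0.0173, adjusted over 9 marker lists 0.0779). By the edgeR test 7 of the 10 were higher in GF mice, and none was at 0 in every library. Lymphocyte and NK cell markers ran from 5.62 to 13.2 CPM in CONV-R and from 2.61 to 6.00 CPM in GF libraries (exact permutation p = 0.0130, adjusted 0.0779). For hepatocyte markers the ranges were 30.4 to 68.3 and 37.0 to 87.8 CPM, and for cholangiocyte markers 0.137 to 2.58 and 0.286 to 22.1 CPM, a 6.41-fold difference of the means (exact permutation p = 0.104, adjusted 0.234). Erythroid markers ran from 19.0 to 36.1 CPM in CONV-R and from 4.88 to 24.3 CPM in GF libraries (exact permutation p = 0.0606, adjusted 0.182). Neutrophil markers ran from 0.323 to 3.68 and from 0.136 to 1.05 CPM (exact permutation p = 0.139, adjusted 0.249), and stellate cell markers from 14.0 to 25.4 and from 5.33 to 30.0 CPM (exact permutation p = 0.662). GF replicates 4 and 5 had Kupffer sums of 197 and 212 CPM, at or below the highest CONV-R library, and read 257 and 230 CPM for Ndrg1 and 3.62 and 7.01 CPM for Bnip3. GF replicate 6, with the highest Kupffer sum, had the lowest Bnip3 of the GF group and the highest Ndrg1 of all 11 libraries. Without GF replicate 6 the log2 difference fell from 2.68 to 1.95 for cholangiocyte markers and from 1.57 to 0.98 for Kupffer cell markers. The part of these markers in the differences of Ndrg1, Bnip3 and the other genes was not tested.

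**Figure D4:**
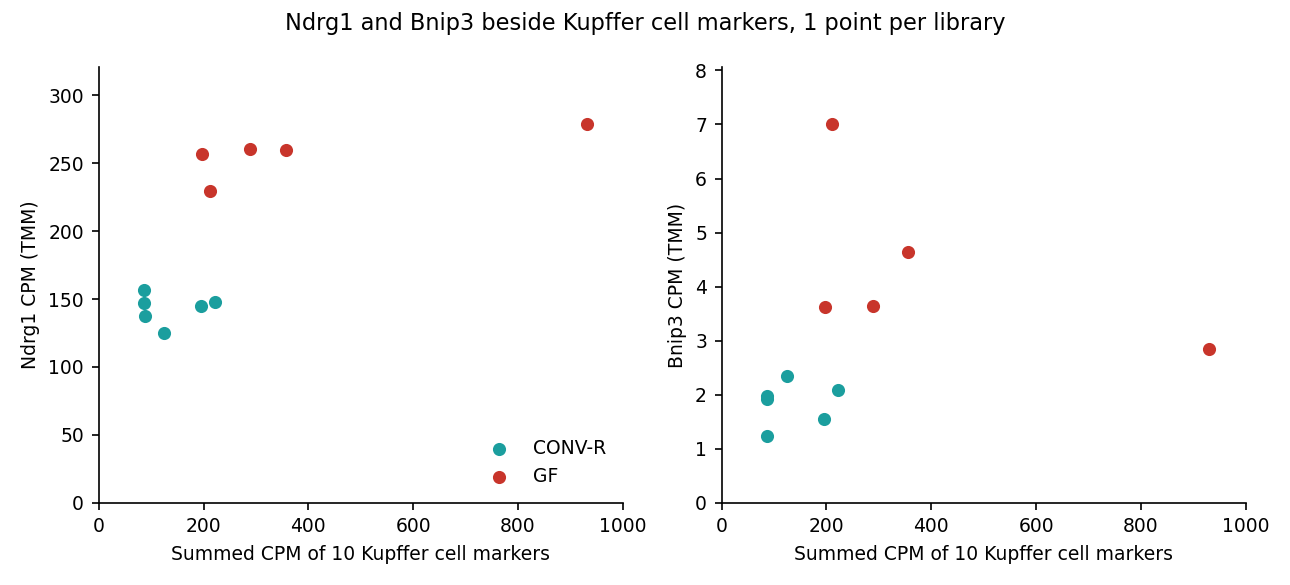
CPM of Ndrg1 (left) and Bnip3 (right) against the summed CPM of 10 Kupffer cell markers, with linear axes from 0 and 1 point per library. GF replicates 4 and 5, at 197 and 212 CPM of Kupffer markers, share the x range of CONV-R libraries and lie above them in both panels.

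Around the 10 genes, lists of 78 further pathway genes gave 65 that could be tested, of which 8 were higher and 1 was lower in GF mice, with a median Log2FC of 0.14. These counts, and those of the single lists that follow, stand beside the 4.80% of all tested genes called higher and the 2.67% called lower. The partners and coactivators of HIF (0 of 5 called) and the VHL ligase and turnover genes (0 of 11, median -0.18) did not pass. The most abundant of them were the coactivators Crebbp (Log2FC 0.25, edgeR adjusted p = 0.217) and Ep300 (0.19, adjusted p = 0.377), and Rack1 (-0.003, adjusted p = 0.996) and Wsb1 (-0.32, adjusted p = 0.406) in the turnover list. Wsb1 was called lower without both libraries that stand apart and with a replicate block, but not in the same 10 libraries fitted with no block. Among other oxygenases that use 2-oxoglutarate, 3 of 10 rose, each an enzyme that hydroxylates collagen. P4ha1 rose from 117 ± 17.4 to 203 ± 68.7 CPM (Log2FC 0.79, edgeR adjusted p = 0.0148). P4ha2 had a Log2FC of 0.62 (edgeR adjusted p = 0.0206) and Plod2 one of 1.66 (adjusted p = 0.0166), while the more abundant Plod1 (0.43, adjusted p = 0.107) and the histone demethylase Kdm3a (0.16, adjusted p = 0.514) did not pass. Plod1 was called higher without CONV-R replicate 1 and without GF replicate 5. Without GF replicate 2 the calls of P4ha2 (Log2FC 0.51, edgeR adjusted p = 0.0615) and Plod2 (1.37, adjusted p = 0.0588) were lost, and so they were without both libraries that stand apart (0.43, adjusted p = 0.0586, and 1.21, adjusted p = 0.0654). The P4ha2 call was also lost without CONV-R replicate 5 (0.58, edgeR adjusted p = 0.0522).

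Of 18 HIF targets in glucose metabolism only Pdk1 was called. Pdk1, the kinase that restrains pyruvate entry into mitochondria, rose from 40.4 ± 6.05 to 64.6 ± 13.8 CPM (Log2FC 0.68, edgeR adjusted p = 0.0116). Lactate dehydrogenase Ldha (0.23, edgeR adjusted p = 0.219) and aldolase Aldoa (0.31, adjusted p = 0.216) were the most abundant that did not pass. The glucose transporter Slc2a1 (1.11, edgeR adjusted p = 0.0872) was called higher by DESeq2. The list's median Log2FC was 0.21. Some of the 18 rested on few counts over all libraries: Gapdh on 281, Slc16a3 on 156, Pfkfb4 on 141 and Pgam1 on 114. For these, a missing call says little.

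Vascular and secreted targets went both ways, with 3 of 9 higher and 1 lower. Pdgfb, which draws mural cells to vessels, rose from 14.4 ± 2.88 to 37.8 ± 15.6 CPM (Log2FC 1.39, edgeR adjusted p = 0.00249). Angpt2, the TIE2 ligand that destabilises vessels, had a Log2FC of 0.59 (adjusted p = 0.00958), and the lipoprotein lipase inhibitor Angptl4 one of 2.46 (adjusted p = 0.0263) at a GF mean of 1.88 CPM. Vegfa, the endothelial growth factor and a textbook HIF target, fell from 63.6 ± 17.7 to 30.5 ± 10.2 CPM (Log2FC -1.06, edgeR adjusted p = 0.00952). The receptor Flt1 (0.27, edgeR adjusted p = 0.120) and adrenomedullin Adm (0.85, adjusted p = 0.126) did not pass. Flt1 was called higher without GF replicate 5, and Adm by limma voom, without the filter, without CONV-R replicate 3, without both libraries that stand apart and with a replicate block. The Angptl4 call was lost in 4 of 11 refits without 1 library (CONV-R replicates 2 and 4, GF replicates 1 and 2), with adjusted p up to 0.0645, and without both libraries that stand apart (2.17, edgeR adjusted p = 0.0604).

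Among 12 targets in stress, acid balance and repression, Ddit4 alone was called. Ddit4 encodes REDD1, an inhibitor of mTOR complex signalling that hypoxia and other stresses induce, and it rose from 0.653 ± 0.534 to 7.15 ± 3.89 CPM (Log2FC 3.43, edgeR adjusted p = 0.000586) without overlap between groups. Zfp395 (-0.21, edgeR adjusted p = 0.473) and Bnip3l were the most abundant that did not pass. In single alternatives Hilpda was called higher with a replicate block, Car9 higher without the filter and Higd1a lower without GF replicate 5. The median of this list was -0.04.

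**Figure D5:**
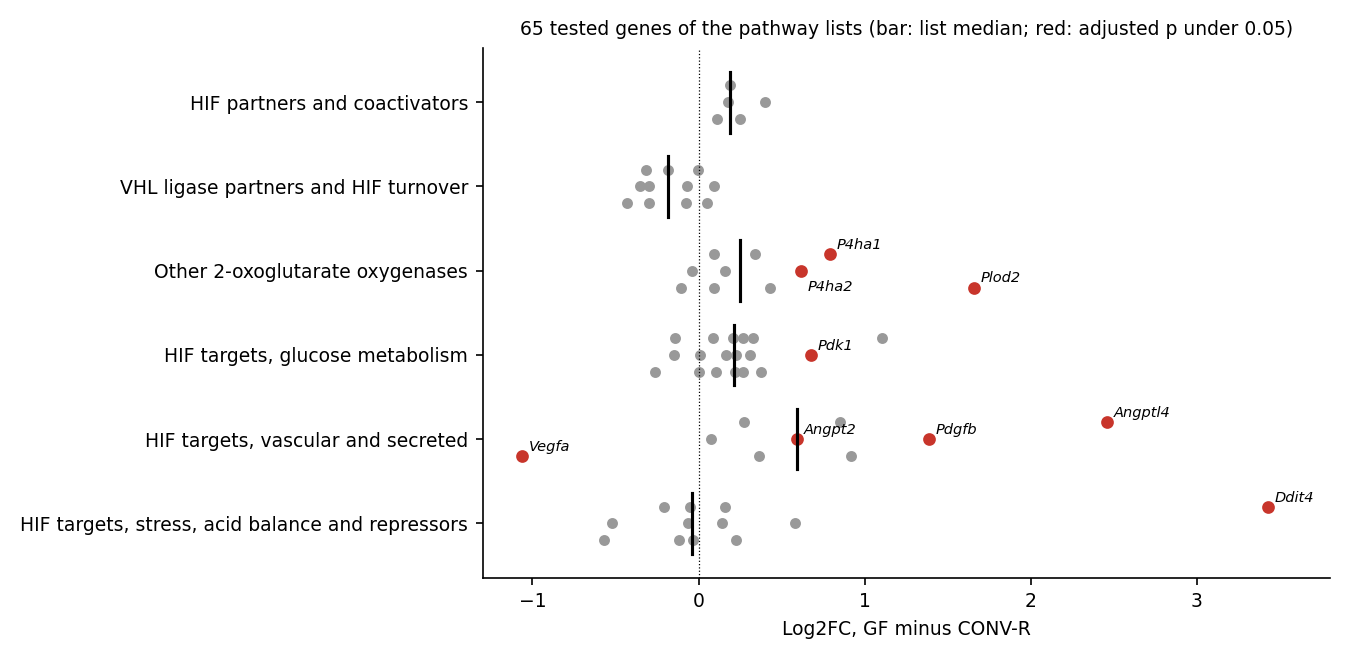
Log2FC (GF minus CONV-R) of the 65 tested pathway genes by list, 1 point per gene, with a black bar at each list's median and red points for genes with an edgeR adjusted p under 0.05. Vegfa at -1.06 is the red point left of 0, and Ddit4 at 3.43 lies farthest right.

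Across the 11 libraries, the tested genes whose scaled log2 CPM lay closest to Ndrg1 were Nedd9, S1pr1 and Lipa, at root mean square differences of 0.203, 0.206 and 0.218 SD. S1pr1, the sphingosine-1-phosphate receptor, had a Log2FC of 1.72 (edgeR adjusted p = 1.10e-07). The scaling kept the difference between groups, so closeness to a gene that separates them largely repeats the same contrast. Closest to Bnip3 were Ttpal, Rps28 and Pisd-ps1 at 0.324 to 0.385 SD. The nearest were Nmi, Tcp1 and Vps26a for Hif1a, Eif3b, Sncaip and Arid5b for Epas1, and Ift81, Ptpn13 and Mcur1 for Hif3a. They were Cxcl16, Cuta and Ifitm3 for Egln1, Fis1, Fam171a2 and Lmf2 for Egln2, and Tsr2, Ippk and Slc25a25 for Egln3. For Vhl they were Paf1, Cog4 and Rnf168, and for Ankrd37 Chka, Gda and Mcur1. The distances of these genes ran from 0.200 to 0.508 SD.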

How the data were processed

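The authors trimmed reads with Trim Galore (0.4.4), mapped them to GRCm38 with STAR (2.5.2b), counted them with featureCounts (1.5.2) and removed 1 GF library with few mapped reads. They deposited raw counts per gene and, separately, log2 values normalized by the DESeq method. The members and the gene lists were chosen with earlier results of these data known.

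Deposited counts were analysed with edgeR 4.0.16 in R 4.3.3 (filterByExpr, TMM, quasi-likelihood test, no covariate, Benjamini-Hochberg adjustment over 12905 genes, threshold 0.05). CPM are scaled by TMM. Ratios (0.5 added to counts of 0) and summed markers were tested by exact two-sided permutation of the mice, with 462 splits (scipy 1.17.1). Exon lengths and positions came from GENCODE M21, whose identifiers matched 29081 of 29307 genes. P-values measure the spread between mice, which were deposited as separate libraries. All 10 members were named, with the called and the 2 most abundant uncalled genes of each list and the 3 genes most alike. Alternatives were DESeq2 1.42.0, limma voom 3.58.1, other scalings and filters, the deposited log2 values, a replicate block and leaving out libraries. On simulated data of this comparison, over 12960 genes, edgeR recovered 156 of 200 changed genes (78.0%) with 3.70% false calls. DESeq2, run without filterByExpr and over 15108 genes, recovered 82.0% with 15.5% false calls. The simulated counts were drawn with edgeR's own dispersions, so they do not rank the tools.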

Additional observations from a re-analysis of the deposited data

Results flagged for a closer look

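Among 32 groups of values examined (10 transcripts and 6 ratios in each group of mice), 4 held a library set apart from the rest by Dixon's gap test, where chance gives about 1 in 20. CONV-R replicate 4 had the highest Hif3a level of its group, 1.69 CPM, with 0.491 CPM in the next library. GF replicate 6 had an Egln3 level of 8.95 CPM, with 2.48 CPM in the next. For the log2 ratio of Egln1 to Egln3, CONV-R replicate 5 was the highest of its group at 6.36, with 4.93 in the next library. GF replicate 6 was the lowest of its group in the same ratio at 2.59, with 4.57 in the next, which rests on the same Egln3 value.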

How the results depend on the processing

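Ndrg1 was called in each of 21 alternative settings, with a Log2FC from 0.78 to 0.88. Bnip3 kept its direction in all 21, but its call was lost without a filter on low counts (1.19, edgeR adjusted p = 0.0725) and without the 2 libraries that stand apart, a setting chosen after seeing the data (1.10, adjusted p = 0.0785). In both, 1 transcript of the 10 was called higher. Leaving out 1 library gave 1 to 2 called higher and a Bnip3 Log2FC from 0.98 to 1.33. DESeq2 gave Bnip3 an adjusted p of 0.00489, and it made 15.5% false calls on simulated data drawn with edgeR's dispersions. None of the 10 was called lower in any setting. Egln1 read -0.0537 with library totals, -0.0042 without the filter, and -0.0699 to 0.105 without 1 library. Vhl read 0.00687 without the 2 libraries that stand apart and -0.231 to 0.000528 without 1 library, and Egln3 read -0.14 to 0.90. Hif3a fell under the filter without CONV-R replicate 4. The Bnip3 to Bnip3l ratio was 0.77 in the deposited normalized log2 values, a scale compressed at low counts (exact permutation, adjusted p = 0.0519). It was 1.04 to 1.42 without 1 library, with an adjusted p of 0.0571 in each refit with 4 GF mice. Of the pathway lists, 5 genes were higher with at least 10 counts in every library, a filter that left 56 to test and removed Plod2, Angptl4 and Ddit4. Without 1 library 5 to 10 were higher and 1 to 2 lower. Without the 2 libraries that stand apart 6 were higher, with P4ha2, Plod2 and Angptl4 lost and Adm gained, and 2 lower. With library totals, lymphocyte and NK cell markers gave -1.09 (log2, adjusted p = 0.0390). Beyond the genes removed by that filter, the cause of these changes was not tested.

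The labels do not say whether replicate numbers pair the mice. Deviations of same-numbered libraries correlated at -0.01 to 0.20. The same-numbered CONV-R library was the best-correlated one for GF replicates 1 and 6 only. With a replicate block, which keeps the 5 numbers both groups share, 1 transcript of the 10 was called higher (Bnip3 1.08, adjusted p = 0.0729) and 2 pathway genes, Wsb1 and Vegfa, were lower. The same 10 libraries with no replicate block gave Bnip3 an adjusted p of 0.0492.

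Depth limits Hif3a, Ankrd37, Egln3 and Bnip3, which had at most 66 counts in a library.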

Other observations

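In the log2 values that the authors normalized, Ndrg1 was higher in GF mice by 0.72 and Bnip3 by 0.76, again with no overlap between groups. The other differences on that scale ran from -0.09 for Vhl to 0.87 for Hif3a, with overlap in each. That scale is compressed at low counts: the Hif3a count of 0 in GF replicate 4 reads 2.12 there, and the 10 Bnip3 counts of CONV-R replicate 3 read 4.29. Differences of low-count genes such as Bnip3 and Hif3a are therefore not comparable with their fitted Log2FC of 1.21 and 1.79.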
